A study of Mus musculus with 8 samples.

Results

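The 10 Toll-like receptor genes Tlr1, Tlr2, Tlr3, Tlr4, Tlr5, Tlr6, Tlr7, Tlr8, Tlr9 and Tlr13 were followed in spleen RNA of mice with and without the TTPΔARE allele. They were taken by gene symbol, and all 10 were present among the 17738 symbols of the expression table, with 1 RefSeq transcript each. The receptors were split by where they signal, 5 at the cell surface (Tlr1, Tlr2, Tlr4, Tlr5 and Tlr6) and 5 in endosomes (Tlr3, Tlr7, Tlr8, Tlr9 and Tlr13). Of these, surface Tlr1 fell and endosomal Tlr3 rose in TTPΔARE spleen, and the other 8 did not pass the test.

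Toll-like receptors are membrane proteins that recognise microbial molecules and signal through Toll/interleukin-1 receptor adaptors such as MyD88 and TRIF to NF-κB and interferon regulatory factors. The surface receptors read lipopeptides, lipopolysaccharide and flagellin, whereas the endosomal ones read nucleic acids and depend on the chaperone UNC93B1 to reach their compartment. In the spleen they are carried mainly by B cells, dendritic cells, macrophages and monocytes.

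Replicate numbers within a group were given here in the order of the samples and pair no spleens. Both groups were untreated male C57BL/6 mice aged 8 to 12 weeks, 4 wild-type (WT) and 4 carrying TTPΔARE. Tristetraprolin (TTP, gene Zfp36) is an RNA-binding protein that promotes decay of mRNAs with AU-rich elements, and TTPΔARE removes such an element from Zfp36 itself. Zygosity is not given in the sources used here. Levels are FPKM, fragment counts scaled to transcript length and sequencing depth, so that levels of different receptors can be compared per unit of length.

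The estimated depth was 28.4 to 32.3 M fragments per spleen, which puts about 87.9 to 134.8 fragments on Tlr5, the lowest receptor, and about 2094 to 3569 on Tlr9, the highest. Zfp36 stood at 36.4 to 44.9 FPKM in wild-type and 46.1 to 57.5 FPKM in TTPΔARE spleens (log2 0.39, limma adjusted p = 0.0323). Over the whole table, 664 of 16608 tested transcripts (4%) passed the limma threshold (adjusted p under 0.05 by Benjamini-Hochberg), 333 higher (2.01%) and 331 lower (1.99%) in TTPΔARE. Wild-type replicate 3 was the highest of its group in the mean of the erythroid and of the neutrophil marker list, and values without it are given for the called receptors.

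TTP binds the heptamer TATTTAT and its longer form TTATTTATT in 3′ untranslated regions (UTRs), so the receptors' 3′ UTRs were searched for both on the mRNA strand, with a nonamer also counted by the heptamer inside it. Only Tlr3 and Tlr4 of the 10 receptors held the heptamer, and the nonamer was found in 0 of the 10. The sites of both genes are shown, a choice made after the Tlr3 difference was seen. Whether the sites bear on the level of either receptor was not tested. Capitals mark the heptamers with any overlap between them, and T stands for U.
Tlr3, chr8:45396805-45396833, minus strand: agttttgtaTATTTATTTATatgtataga
Tlr3, chr8:45396505-45396529, minus strand: tcttgaactTATTTATctctgcctc
Tlr4, chr4:66842014-66842038, plus strand: agaatgctaTATTTATtaaatacaa

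The Tlr3 3′ UTR of 1248 bases held 3 heptamers, 2 of them overlapping in the first site, whose first heptamer starts at base 89 after the stop codon; the heptamer of the second site starts at base 393. In Tlr4 the heptamer starts at base 544 of a 1321-base 3′ UTR. Among 11831 tested genes with a 3′ UTR, 27.8% held the heptamer and 7.02% the nonamer. A UTR of such length often holds at least 1 heptamer. This was so for 30.5% of UTRs of about the Tlr3 length and 31.7% of those of about the Tlr4 length. The share of UTRs with 3 heptamers, as in Tlr3, was not computed. The other receptors had 3′ UTRs of 58 bases (Tlr8), 148 (Tlr2), 165 (Tlr1), 273 (Tlr9), 290 (Tlr5), 405 (Tlr7), 859 (Tlr13) and 1111 bases (Tlr6). A match describes these letters only and says nothing of binding in these spleens.

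Tlr1 and Tlr9 were by far the most abundant receptor mRNAs in the spleen. Over the 8 spleens Tlr9 averaged 27.0 FPKM (range 21.2 to 31.8) and Tlr1 24.7 FPKM (20.2 to 28.4), and these ranges overlapped. Tlr7 followed at 8.93 FPKM (7.51 to 10.3), below all Tlr1 values. Next came Tlr4 at 5.77, Tlr13 at 5.09, Tlr2 at 4.51, Tlr3 at 4.25, Tlr6 at 3.46 and Tlr8 at 2.65 FPKM, and each of these overlapped with the next in the order. Tlr5 was lowest at 1.09 FPKM (0.865 to 1.45), below every Tlr8 value.

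**Figure D1:**
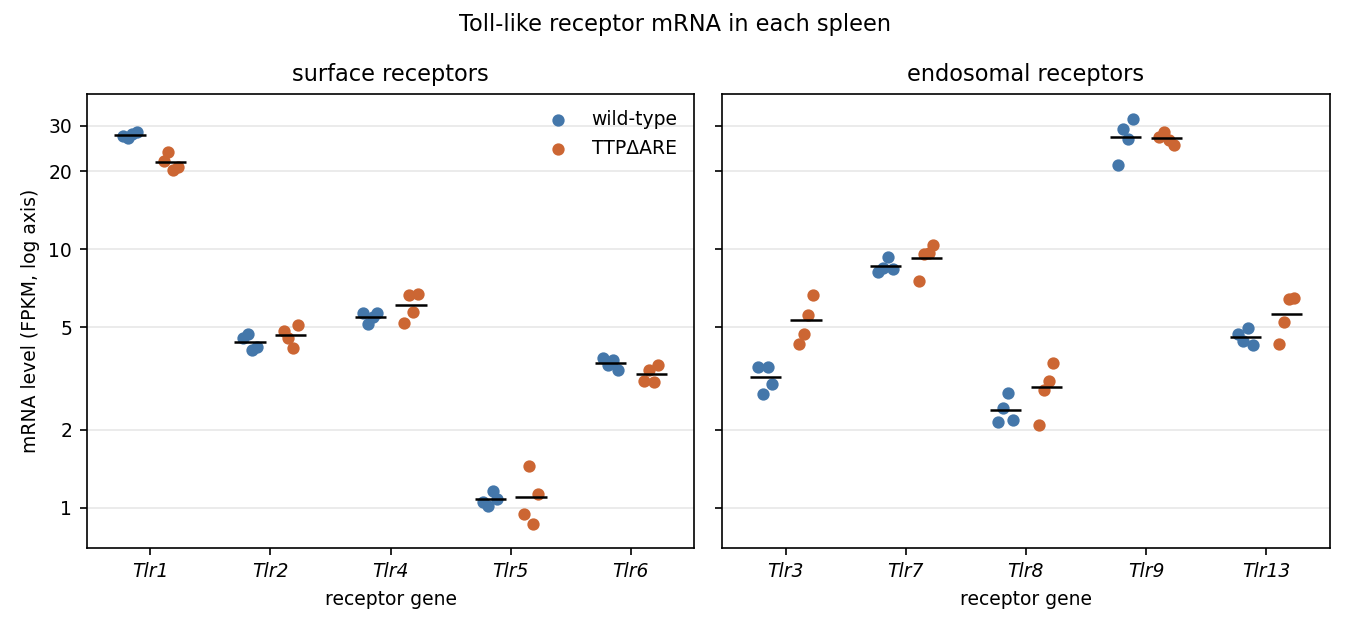
Level of each receptor mRNA in each spleen, in FPKM on a log axis, with wild-type in blue, TTPΔARE in orange, points for the 4 spleens of each group and bars for group means. The TTPΔARE points of Tlr1 (20.2 to 23.8 FPKM) lie below and those of Tlr3 (4.31 to 6.65 FPKM) above all wild-type points, while the groups overlap for the other 8 receptors.

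Tlr1, the partner of Tlr2 for triacylated lipopeptides, fell in TTPΔARE spleen. Wild-type replicates 1 to 4 had 27.3, 27.0, 27.8 and 28.4 FPKM, and TTPΔARE replicates 1 to 4 had 22.0, 23.8, 20.2 and 20.9 FPKM. The groups did not overlap, as for 5.99% of all tested transcripts in the lower direction. The mean went from 27.7 ± 0.611 to 21.7 ± 1.58 FPKM (SD, n = 4 each), 1.27-fold lower in TTPΔARE by limma (log2 -0.34, SE 0.060, adjusted p = 0.0130). The call was lost without TTPΔARE replicate 3 (log2 -0.31, adjusted p = 0.0505) and when the erythroid marker mean entered the fit as a covariate (log2 -0.30, adjusted p = 0.331). Without that spleen 198 of all tested transcripts passed, against 664 with every spleen. In bulk RNA, fewer cells of a type and less RNA per cell cannot be told apart.

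Tlr6, the partner of Tlr2 for diacylated lipopeptides, lies beside Tlr1 on chromosome 5 (GRCm38; Tlr1 at 64924680 to 64933600, Tlr6 at 64953092 to 64970942), 19491 bases apart. Wild-type spleens had 3.81, 3.57, 3.74 and 3.42 FPKM of Tlr6, and TTPΔARE spleens 3.08, 3.41, 3.05 and 3.58 FPKM. The groups overlapped through TTPΔARE replicate 4, and the difference did not pass (log2 -0.13, SE 0.069, limma adjusted p = 0.309). The transcripts of these neighbours share 454 stretches of 50 bases, 16.6% of those in Tlr1 and 12.5% of those in Tlr6, and no other pair of the 45 shares any. How the authors placed reads from the shared stretches is not given in the sources used here, so the split of reads between both genes is uncertain. Their summed level did not overlap between groups either, at 30.6 to 31.8 FPKM in wild-type and 23.3 to 27.2 FPKM in TTPΔARE spleens. That sum was mostly Tlr1, at 7.17 to 8.31 times the Tlr6 level in wild-type and 5.83 to 7.14 times in TTPΔARE. It is therefore not separate from the Tlr1 call.

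Tlr2, the common partner of Tlr1 and Tlr6, did not pass. Its levels were 4.53, 4.70, 4.08 and 4.17 FPKM in wild-type and 4.82, 4.55, 4.15 and 5.07 FPKM in TTPΔARE spleens, with wide overlap (log2 0.08, 95% interval -0.08 to 0.24, limma adjusted p = 0.602). The amount of Tlr1 mRNA per Tlr2 mRNA was thus lower in each TTPΔARE spleen, at 4.12 to 5.24 against 5.75 to 6.83 in wild-type. This ratio shows an unequal change of the pair and does not say which member moved.

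Tlr4, the lipopolysaccharide receptor, had 5.65, 5.13, 5.46 and 5.65 FPKM in wild-type and 5.19, 6.65, 5.70 and 6.69 FPKM in TTPΔARE spleens. TTPΔARE replicates 2, 3 and 4 were above all wild-type values, replicate 3 narrowly, and replicate 1 was among them; the difference did not pass (log2 0.13, 95% interval -0.05 to 0.31, limma adjusted p = 0.403). Tlr5, the flagellin receptor, had 1.05, 1.02, 1.16 and 1.08 FPKM in wild-type and 0.949, 1.45, 0.865 and 1.14 FPKM in TTPΔARE spleens. Its TTPΔARE values lay on both sides of the wild-type ones (log2 0.008, 95% interval -0.23 to 0.25, limma adjusted p = 0.979). The sign of the Tlr5 difference changed with quantile normalization and with some spleens left out, so no direction can be given.

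Tlr3, the receptor for double-stranded RNA and the one that signals through TRIF without MyD88, rose in TTPΔARE spleen. Wild-type replicates 1 to 4 had 3.49, 2.76, 3.50 and 3.02 FPKM, and TTPΔARE replicates 1 to 4 had 4.31, 4.68, 5.56 and 6.65 FPKM. No TTPΔARE value was as low as any wild-type one, as for 6.53% of all tested transcripts in the higher direction. The mean went from 3.19 ± 0.366 to 5.30 ± 1.04 FPKM (SD, n = 4 each), 1.56-fold higher in TTPΔARE by limma (log2 0.64, SE 0.119, adjusted p = 0.0170). This was the largest difference among the receptors, and it rests on about 382 to 946 fragments per spleen.

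The Tlr3 call did not survive every setting. It was lost without wild-type replicate 4 (log2 0.62, adjusted p = 0.0536), without TTPΔARE replicate 3 (log2 0.61, adjusted p = 0.0617) and with the erythroid marker covariate (log2 0.42, adjusted p = 0.428). Leaving out these spleens lowered the count over all tested transcripts as well, from 664 to 252 and 198. Without wild-type replicate 3 Tlr1 stood at log2 -0.34 (limma adjusted p = 0.0259) and Tlr3 at log2 0.68 (limma adjusted p = 0.0219). Tlr3 lies on chromosome 8 at 45395665 to 45411075 (GRCm38), where the annotated transcript has 7 exons.

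Tlr7 and Tlr8, receptors for single-stranded RNA, are neighbours on the X chromosome, 39050 bases apart. Tlr7 had 8.17, 8.43, 9.36 and 8.38 FPKM in wild-type and 7.51, 9.58, 9.68 and 10.3 FPKM in TTPΔARE spleens. Tlr8 had 2.15, 2.42, 2.79 and 2.18 FPKM in wild-type and 2.10, 2.85, 3.10 and 3.64 FPKM in TTPΔARE spleens. For both genes TTPΔARE replicate 1 was the lowest of all 8 spleens while the other 3 TTPΔARE spleens were above every wild-type one. Neither passed, with a Tlr7 difference of log2 0.10 (95% interval -0.10 to 0.30, limma adjusted p = 0.586) and a Tlr8 difference of log2 0.23 (95% interval -0.05 to 0.52, limma adjusted p = 0.340).

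Tlr13, which detects bacterial ribosomal RNA, was like Tlr4, Tlr7 and Tlr8 in that TTPΔARE replicate 1 was the lowest of its group. It had 4.69, 4.40, 4.96 and 4.25 FPKM in wild-type and 4.30, 5.23, 6.43 and 6.46 FPKM in TTPΔARE spleens. Replicate 1 of TTPΔARE lay within the wild-type range and the other 3 above it, and the difference did not pass (log2 0.25, 95% interval 0.005 to 0.50, limma adjusted p = 0.227).

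Tlr9, the receptor for unmethylated CpG DNA, had 21.2, 29.1, 26.8 and 31.8 FPKM in wild-type and 27.2, 28.5, 26.5 and 25.2 FPKM in TTPΔARE spleens. All TTPΔARE values fell inside the wild-type range (log2 -0.007, 95% interval -0.24 to 0.22, limma adjusted p = 0.982). The wild-type group was the wider one, with replicate 1 lowest and replicate 4 highest, and the sign of the difference changed with quantile normalization and with single spleens left out.

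**Figure D2:**
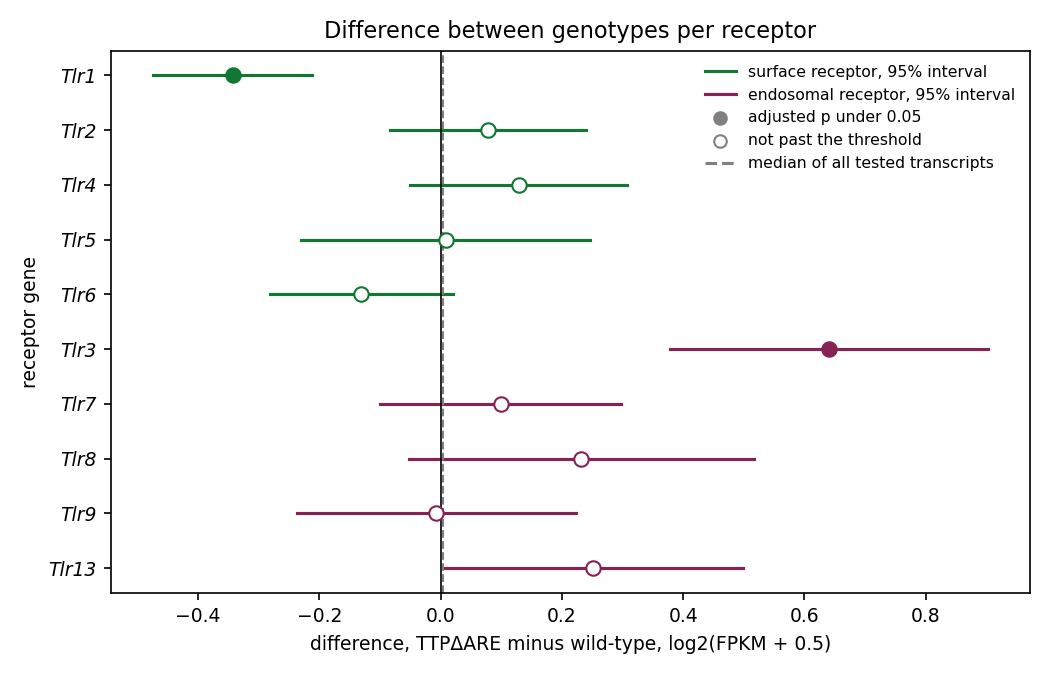
Difference in log2(FPKM + 0.5) between TTPΔARE and wild-type for each receptor, with 95% intervals from limma, green for surface and purple for endosomal receptors, and filled points for those past the threshold. Only Tlr1 (-0.34) and Tlr3 (0.64) have filled points, and the dashed line is the median of all tested transcripts (0.003).

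Set side by side, the surface receptors had a median difference of log2 0.008 and the endosomal receptors one of 0.23, against 0.003 over all 16608 tested transcripts. Of the 5 surface genes 1 fell and 0 rose, and of the 5 endosomal genes 1 rose and 0 fell. The other 4 in each class did not pass. Among all tested transcripts 2.01% were called higher and 1.99% lower, and 1 call in a class of 5 does not set the classes apart. Differences ranged from -0.34 (Tlr1) to 0.13 (Tlr4) in the surface class and from -0.007 (Tlr9) to 0.64 (Tlr3) in the endosomal class, so the classes overlapped. With 1 spleen left out the endosomal median ran from 0.13 (without TTPΔARE replicate 4) to 0.36 (without TTPΔARE replicate 1), and the surface median from -0.091 (without TTPΔARE replicate 2) to 0.080 (without TTPΔARE replicate 3). At an unadjusted p under 0.05 there were 3 receptors (Tlr1, Tlr3 and Tlr13) of 10, against 21.1% of all tested transcripts. These are descriptions of chosen members, without a test of one class against the other.

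Within single spleens the balance of the classes was compared by sums of FPKM and by means of log2 values. Summed surface receptor mRNA was 41.5 to 42.7 FPKM in wild-type and 34.0 to 39.9 FPKM in TTPΔARE spleens, and without Tlr1 it was 14.3 to 15.0 and 13.8 to 16.5 FPKM. The groups therefore overlapped once Tlr1 was left out. Summed endosomal receptor mRNA was 39.7 to 49.7 FPKM in wild-type and 45.5 to 52.3 FPKM in TTPΔARE spleens, with overlap. The surface class made up 46.2 to 51.6% of receptor mRNA in wild-type and 39.9 to 44.2% in TTPΔARE spleens, without overlap. These sums weigh abundant receptors most, whereas a mean of log2(FPKM + 0.5) weighs the 5 receptors of a class equally. The surface mean minus the endosomal mean was -0.37 to -0.17 in wild-type and -0.77 to -0.38 in TTPΔARE spleens, narrowly without overlap. The surface share and this gap include the called Tlr1 and Tlr3, so they are not separate from those calls. Neither was computed without these genes. Between the groups the endosomal mean differed by 0.24 and the surface mean by -0.05, each with overlap. As a share of all FPKM in a spleen, the 10 receptors came to 0.0387 to 0.0469% (wild-type) and 0.0397 to 0.0450% (TTPΔARE).

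Few genes that serve the receptors passed the test, as few did in the whole table. Of 68 genes listed over 7 groups of the pathway and of other innate sensors, 65 were tested, and 1 rose and 0 fell, against 2.01% and 1.99% of all tested transcripts, a count near that background. By limma 10 of the 65 had an unadjusted p under 0.05, against 21.1% of all tested transcripts, and the median difference was log2 -0.03. The gene that rose was Mavs, the adaptor of the cytosolic RNA sensors, which is outside the Toll-like receptor pathway. It had 2.54, 3.24, 2.88 and 2.87 FPKM in wild-type and 4.16, 3.59, 4.17 and 3.93 FPKM in TTPΔARE spleens (log2 0.40, SE 0.078, limma adjusted p = 0.0187), without overlap. The other 11 innate sensors did not pass, the DNA pathway protein Tmem173 (STING) being the most abundant at 22.5 ± 1.45 and 20.3 ± 1.48 FPKM (SD, n = 4 each).

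In each of the 6 pathway groups proper, 0 members passed by limma. Of 12 folding and trafficking genes 1 had an unadjusted p under 0.05, and Unc93b1, on which the endosomal receptors depend, stood at 47.2 ± 3.61 and 47.2 ± 1.33 FPKM (log2 0.003) in wild-type and TTPΔARE. The folding chaperone Hsp90b1, the most abundant of that group, stood at 147.7 ± 21.2 and 151.1 ± 14.7 FPKM (SD, n = 4 each). Of 7 accessory genes tested 1 had an unadjusted p under 0.05: Cd36, a scavenger receptor that assists Tlr2 and Tlr6, with 9.91, 8.20, 8.52 and 7.52 FPKM in wild-type and 9.30, 12.3, 11.3 and 11.8 FPKM in TTPΔARE spleens (log2 0.37, limma adjusted p = 0.0607). Hmgb1 was the most abundant accessory gene, at 124.8 ± 9.25 and 115.7 ± 2.43 FPKM.

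The signalling genes downstream of the receptors were also counted at an unadjusted p. Of 5 adaptors tested 0 had an unadjusted p under 0.05, with Myd88 at log2 -0.08 and Ticam1, which encodes TRIF, at 0.12, and with Pik3ap1 most abundant at 48.4 ± 3.73 and 46.0 ± 2.02 FPKM. Of 16 kinases and ligases 4 had an unadjusted p under 0.05, with Irak2, Tab1 and Ikbkb at log2 -0.17, -0.24 and -0.16 and Tab3 at 0.18, and Tab2 was the most abundant at 24.4 ± 1.76 and 25.0 ± 0.274 FPKM. Of 6 transcription factors 0 had an unadjusted p under 0.05, with Nfkb1 at 43.6 ± 1.72 and 43.4 ± 0.284 FPKM. Of 8 inhibitors tested 1 did, and Nfkbia, the NF-κB inhibitor, was the most abundant at 56.8 ± 2.48 and 61.4 ± 4.30 FPKM (SD, n = 4 each).

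**Figure D3:**
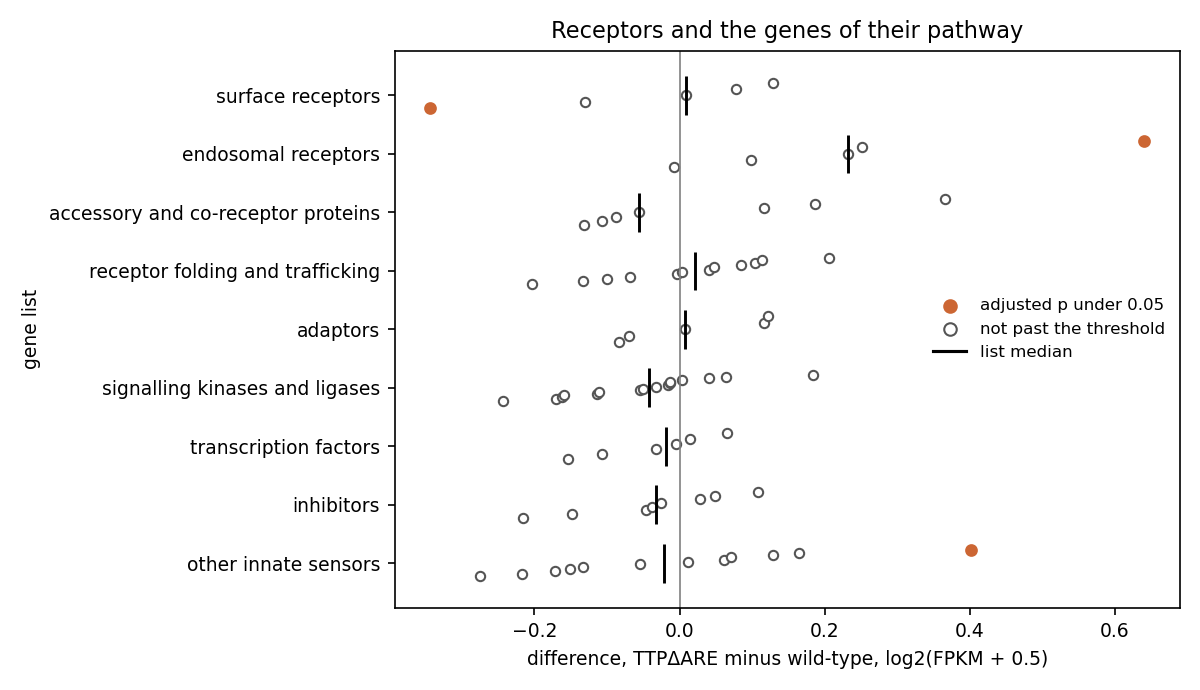
Difference in log2(FPKM + 0.5) between TTPΔARE and wild-type for each tested gene of the receptor classes and of 7 further lists, with list medians as bars and filled points for genes past the threshold. Outside the receptors only Mavs (0.40) has a filled point, and the medians of the 7 lists lie between -0.06 and 0.02.

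Some markers of the cells that carry the receptors also differed between the groups. Over all tested transcripts 2.01% were called higher and 1.99% lower in TTPΔARE. The groups did not overlap for 6.53% in the higher and 5.99% in the lower direction. Of 8 conventional dendritic cell markers 3 rose, Itgae from 1.02 ± 0.0445 to 1.76 ± 0.302 FPKM, Xcr1 from 3.53 ± 0.495 to 5.33 ± 0.926 FPKM and Flt3 from 9.58 ± 0.908 to 12.2 ± 1.11 FPKM (SD, n = 4 each), with a list median of log2 0.35. Of the 8 markers 7 had a positive difference, and Clec4a4 stood at log2 -0.11. The summed level of the list was 45.4 to 51.9 FPKM in wild-type and 53.1 to 61.1 FPKM in TTPΔARE spleens, without overlap. Tlr3 is known for its high level in the Xcr1-bearing dendritic cells. The part of these cells in the Tlr3 difference was not tested.

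Of 9 B cell markers 2 fell, Fcer2a (CD23) from 18.4 ± 0.802 to 12.0 ± 1.25 FPKM and Cd22 from 57.8 ± 4.68 to 38.9 ± 3.63 FPKM, with a list median of log2 -0.23. Of all tested transcripts 1.99% were called lower. Cr2 was the 1 marker of this list with a positive difference (log2 0.31, limma adjusted p = 0.121). The summed level was 984.7 to 1054.0 FPKM in wild-type and 858.4 to 925.8 FPKM in TTPΔARE spleens, without overlap. The Tlr1 difference was log2 -0.34 and the Tlr9 difference -0.007. Tlr9 ranged from 21.2 to 31.8 FPKM in wild-type and from 25.2 to 28.5 FPKM in TTPΔARE spleens. Whether either receptor followed the B cell markers was not tested. Of 9 monocyte markers 3 fell, Ace (log2 -0.75), Lyz2 (-0.49) and Nr4a1 (-0.38), with summed levels of 649.7 to 853.8 and 520.6 to 550.9 FPKM in wild-type and TTPΔARE. That sum was mostly Lyz2 (652.5 ± 86.8 and 462.4 ± 16.3 FPKM; SD, n = 4 each). The list median was log2 -0.08, 4 of the 9 had a positive difference, Ly6c2 (0.25), Ccr2 (0.26), Fcgr4 (0.36) and Treml4 (0.09), and the list mean overlapped between groups. The part of B cells and monocytes in the Tlr1 difference was not tested.

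Of 8 red pulp macrophage markers found, 1 rose, Emr1 (F4/80; log2 0.36), and the summed levels overlapped, at 284.8 to 370.1 FPKM in wild-type and 328.1 to 429.4 FPKM in TTPΔARE spleens. Of 8 plasmacytoid dendritic cell markers 0 passed by limma and 4 had a positive difference, with a list median of log2 0.08. The 3 with an unadjusted p under 0.05 were all positive (Ccr9 0.49, Klk1 0.47 and Siglech 0.23). Spib (log2 -0.16), Tcf4 (-0.06), Ly6d (-0.06) and Bst2 (-0.03) went the other way. Their summed levels, mostly Spib and Ly6d, were 234.4 to 260.4 and 224.3 to 241.0 FPKM. Of 9 neutrophil markers Mmp8 (log2 1.17) and Retnlg (0.90) rose, with summed levels of 108.0 to 294.4 and 153.8 to 268.1 FPKM. Of 8 T cell markers 0 passed by limma and 2 had a positive difference, with a list median of log2 -0.11 (130.1 to 149.5 and 115.5 to 137.0 FPKM summed). The 4 with an unadjusted p under 0.05 were Cd5 (log2 -0.31), Cd3d (-0.24), Cd4 (-0.20) and Cd8a (0.19). Of 8 endothelial and stromal markers tested Kdr (log2 0.36) rose and Dcn (-0.48) fell (160.6 to 175.9 and 158.9 to 175.8 FPKM summed). No marker found in the table was at 0 in every spleen.

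The erythroid list had the largest median difference of the 9 marker lists. Of 10 erythroid markers Alas2 (log2 1.15) and Bpgm (0.99) rose, all 10 had a positive difference and a median of log2 1.33, and the summed level was 92.4 to 154.0 FPKM in wild-type and 174.1 to 296.4 FPKM in TTPΔARE spleens. The list mean, by contrast, overlapped between groups, through wild-type replicate 3. With the mean of this list as a covariate the endosomal differences were log2 0.42 (Tlr3), -0.04 (Tlr7), 0.010 (Tlr8), -0.05 (Tlr9) and 0.074 (Tlr13). The surface differences were log2 -0.30 (Tlr1), 0.17 (Tlr2), 0.11 (Tlr4), 0.05 (Tlr5) and -0.13 (Tlr6). The part of erythroid cells in any receptor difference was not tested. The same covariate left 2 transcripts of the whole table past the threshold, so that losses of calls under it are not particular to the receptors.

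**Figure D4:**
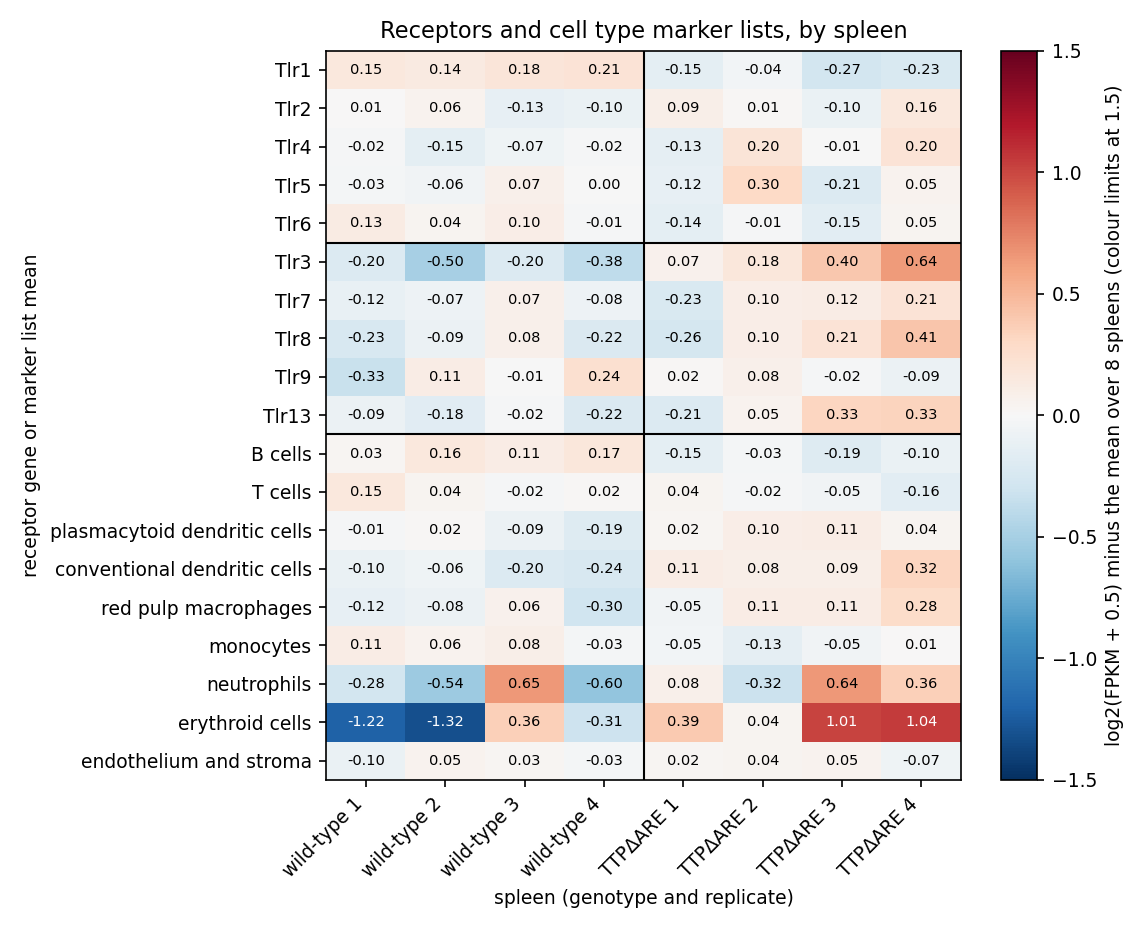
Each receptor, and the mean of each cell type marker list, in each spleen, as log2(FPKM + 0.5) minus its mean over the 8 spleens; columns are spleens, and red is above and blue below the mean. Tlr3 and the conventional dendritic cell list are negative in all wild-type and positive in all TTPΔARE spleens, Tlr1 and the B cell list the reverse, and Tlr7, Tlr8 and Tlr13 are lowest or near lowest in TTPΔARE replicate 1.

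The transcripts whose profile over the 8 spleens was most like that of a called receptor were found among 14649 transcripts averaging 1 FPKM or more, by the root mean square distance between centred log2 values. For Tlr1 they were Mif4gd (distance 0.034; log2 -0.30), Mical1 (0.037; log2 -0.35) and A930024E05Rik (0.041; log2 -0.32). For Tlr3 they were Fam213a (distance 0.089; log2 0.62), the efflux transporter Abcg2 (0.104; log2 0.49) and the chemokine receptor Ccr1 (0.115; log2 0.71). All 6 passed the limma threshold in the direction of their receptor, which the choice by likeness favours.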

How the data were processed

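RNA of 8 spleens was sequenced, and the values deposited by the authors are FPKM per RefSeq transcript. BWA and mm10 are named in the submitters' processing notes. For the counting tool, strand setting, annotation and multiply mapped reads, nothing is given in the sources used here. Groups come from the genotype labels, which name no batch or pairing.

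limma 3.58.1 was fitted to log2(FPKM + 0.5) of transcripts averaging 0.5 FPKM or more (R 4.3.3, variance trend, two-sided, Benjamini-Hochberg, threshold 0.05). Fold changes on this scale understate changes of low transcripts. FPKM are not counts, and whole fragments were recovered for 46.2 to 49.3% of low values (tolerance 0.05 fragments), so no count test was run. In a simulation of these groups over 16608 transcripts, 50 were changed at each fold, with noise drawn independently for each transcript. The limma step recovered 42% of 1.3-fold, 86% of 1.5-fold, 94% of 2-fold and 100% of 3-fold changes, with 12 false calls among 173. Variation shared by transcripts was not simulated, so recovery in these spleens can differ.

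Genes with several transcripts were read through that of the highest mean. Lengths, 3′ UTRs and sites come from GENCODE M21 transcripts with the table's accession (all 10 receptors matched), coordinates of genes from RefSeq GRCm38.p6. UTRs are of about the same length where the shorter is at least 0.8 of the longer. Named are all receptors, called pathway genes (at most 4 a list) with the most abundant one, called markers (at most 3 a list), and the 3 nearest profiles of each called receptor; Unc93b1, Cd36, Myd88, Ticam1 and the genes given for an unadjusted p, an opposite direction or a share of a sum were named after their values were seen. The members and lists were chosen with earlier results of these data known. Lbp, Sarm1, Il1rl1 and Pdpn were under the filter. Adgre1 and Ly6g were not found in the table under these symbols. Python 3.11.15, numpy 2.4.6, pandas 2.3.3 and matplotlib 3.10.9 were used.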

Additional observations from a re-analysis of the deposited data

How the results depend on the processing

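The Tlr1 and Tlr3 calls held in 10 of 11 processing alternatives (pseudocounts of 0.1 and 1, no filter or a mean of at least 1 FPKM, median-of-ratios scaling, quantile normalization, no variance trend, robust variance, a threshold of 0.1, FPKM summed per symbol) and were lost with an erythroid covariate. Under that covariate 0 receptors were called, 0 higher and 0 lower. The endosomal median was then log2 0.010, the surface median was 0.046 and Tlr7 stood at -0.039. With quantile normalization Tlr5 stood at -0.033 and Tlr9 at 0.019. With 1 spleen left out, 0 to 2 receptors were called, 0 to 1 higher and 0 to 1 lower. Leaving out spleens gave Tlr5 values of -0.091 to 0.080 and Tlr9 values of -0.12 to 0.072. Over the whole table, where 664 transcripts passed, the count was 198 to 725 with 1 spleen left out, 2 with the covariate and 1362 at a threshold of 0.1. The causes were not tested. No paired analysis was possible because the labels give no replicate numbers or pairs; the numbers used here follow the order of the samples.

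Tlr5 and Tlr8 rest on the fewest fragments, and 4 spleens a group recovered 42% of 1.3-fold changes in the simulation.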

Other observations

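Tlr11 and Tlr12, endosomal receptors of mice for microbial profilin, were in the table but not among the 10 receptors described, and were looked at after the values had been seen. Tlr11 had 6.19, 5.56, 4.61 and 4.00 FPKM in wild-type and 6.76, 7.73, 5.66 and 8.68 FPKM in TTPΔARE spleens, overlapping through TTPΔARE replicate 3 (log2 0.46, SE 0.139, limma adjusted p = 0.0896). Tlr12 had 3.59, 4.23, 3.97 and 4.13 FPKM in wild-type and 5.18, 4.44, 4.11 and 4.58 FPKM in TTPΔARE spleens (log2 0.18, SE 0.077, limma adjusted p = 0.217). Neither passed the threshold.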
